A study of Homo sapiens with 9 samples.

Results

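Tumor necrosis factor (TNF) superfamily ligands and their receptors were examined in A549, an established cell line derived from a human lung adenocarcinoma. The genes were chosen by symbol, and all 10 of them were found among the 58735 genes of the count matrix. They were the ligands TNF and TNFSF10 (TRAIL), the TNF receptors TNFRSF1A and TNFRSF1B, the TRAIL receptors TNFRSF10A, TNFRSF10B and TNFRSF10D, and the receptors TNFRSF12A, TNFRSF21 and LTBR. A549 cells had been transfected with jetPRIME and a control plasmid (PC3.1 to PC3.3 in the labels, unrelated to the prostate line of similar name), a plasmid that overexpresses the long non-coding RNA LINC00996, or a plasmid that overexpresses the long non-coding RNA AP001189.3. There were 3 RNA-seq libraries per group, all from this 1 line after transfection, and the labels name no drug or cytokine. The comparisons asked how overexpression of either lncRNA changed the transcriptome of a lung cancer cell.

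TNF superfamily ligands are trimeric proteins that act from the cell surface or after shedding. TNF binds TNFR1, the product of TNFRSF1A, which carries a cytoplasmic death domain, and TNFR2, the product of TNFRSF1B, which lacks a death domain and recruits TRAF adaptors. TRAIL binds the death receptors DR4 and DR5, encoded by TNFRSF10A and TNFRSF10B, which recruit FADD and the initiator caspases, and the decoy receptor DcR2, encoded by TNFRSF10D, whose death domain is truncated. In epithelial cells the same receptors can drive either NF-kB target genes or apoptosis, and many lung cancer cells express the TRAIL death receptors.

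All libraries had a similar depth, with between 15272450 and 18125447 counts on genes. Each lncRNA marked its own group. LINC00996 had 4373 to 5952 counts in its 3 libraries and 4 to 9 in the other 6, and AP001189.3 had 1660 to 2378 counts in its libraries and 0 to 2 elsewhere. All 12 A549 and epithelial markers were expressed, and CDKN2A, which is deleted in A549, had 0 counts in all 9 libraries. The summed level of the 12 markers was 14376 to 14570 CPM (read counts scaled to library size with TMM factors) in control, 19203 to 22476 CPM in LINC00996 and 15620 to 16291 CPM in AP001189.3 libraries. This sum joins markers that moved both ways. With LINC00996, 4 of them were called higher and 2 lower, at an adjusted p below 0.05 in edgeR's quasi-likelihood test. These calls made 50% of the 12, beside 22.3% of all genes tested. The lower ones, named after their values were seen, were CDH1 (317.5 CPM in control, 171.2 CPM with LINC00996) and KRT19 (296 and 225 CPM). Of 15 markers of leukocytes, endothelium and fibroblasts, 10 stayed under 1 CPM in every library, and CD3D, CD2 and MS4A1 had 0 counts throughout. The 15 summed to 49.98 to 53.0 CPM in control, 35.5 to 40.2 CPM in LINC00996 and 41.8 to 51.0 CPM in AP001189.3 libraries. Mitochondrially encoded genes took 5.26% to 5.66% of the counts in control, 6.68% to 7.18% in LINC00996 and 5.32% to 5.52% in AP001189.3 libraries. Both sums and the mitochondrial share moved with the LINC00996 plasmid. The sum of the 12 A549 and epithelial markers was also above control in every AP001189.3 library. The part of the marker sums in the results below was not tested. With the mitochondrially encoded genes left out of the fit, 5 of the 10 genes were still called with LINC00996, beside 22.4% of all genes tested. LINC00996 replicate 1 stood apart from the rest of its group. Its counts differed from those of replicates 2 and 3 by a chi-square per gene of 20.1 and 29.7, against 2.21 to 6.70 for every other pair within a group. Across genes, the deviation of that library from the mean of all libraries correlated with GC content at a Spearman's rho of 0.43, against -0.24 and -0.42 in replicates 2 and 3, and the rho was -0.28 to -0.0036 in control and 0.20 to 0.35 in AP001189.3 libraries. For part of the results below, values without this library or with a GC-content offset are therefore given as well.

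The levels of the 10 genes were first set in order per kilobase of the gene length deposited beside the counts, whose derivation is not given in the sources used here. In control A549 cells, TNFRSF1A stood highest at 75.4 CPM per kb, followed by TNFRSF10B at 64.2 and TNFRSF21 at 60.6 CPM per kb. TNFSF10 reached 43.6, TNFRSF12A 38.9 and LTBR 26.2 CPM per kb. TNFRSF1B and TNFRSF10A came next at 13.5 and 12.3 CPM per kb, with overlapping libraries, while no other neighbours in this order overlapped. The decoy receptor TNFRSF10D, at 6.22 CPM per kb, and TNF, at 3.11 CPM per kb, were the lowest. The order depends on the length used. Per kb of the longest transcript, an alternative chosen after seeing the data, TNFSF10 at 77.6 and LTBR at 70.8 CPM per kb came before TNFRSF21 at 60.6 in control, while TNFRSF1A stayed first at 135.8 and TNF last at 3.11 CPM per kb.

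By the deposited length, the order was different in LINC00996 libraries. TNFRSF1A, TNFRSF10B and TNFRSF21 kept the first places at 88.3, 53.0 and 47.5 CPM per kb, but TNFSF10 came after LTBR, at 14.1 against 27.4 CPM per kb, and overlapped TNFRSF10A at 10.3 CPM per kb. TNFRSF1B dropped below the decoy receptor, at 2.18 against 6.92 CPM per kb for TNFRSF10D. TNFRSF12A, at a mean of 44.9 CPM per kb, ranged from 31.8 to 69.6 and overlapped both TNFRSF21 and LTBR. TNF remained last at 1.11 CPM per kb. In AP001189.3 libraries the order was that of control except that TNFRSF12A, at 54.6, and TNFSF10, at 54.0 CPM per kb, overlapped and changed places, as did TNFRSF10A, at 14.8, and TNFRSF1B, at 13.5 CPM per kb.

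**Figure D1:**
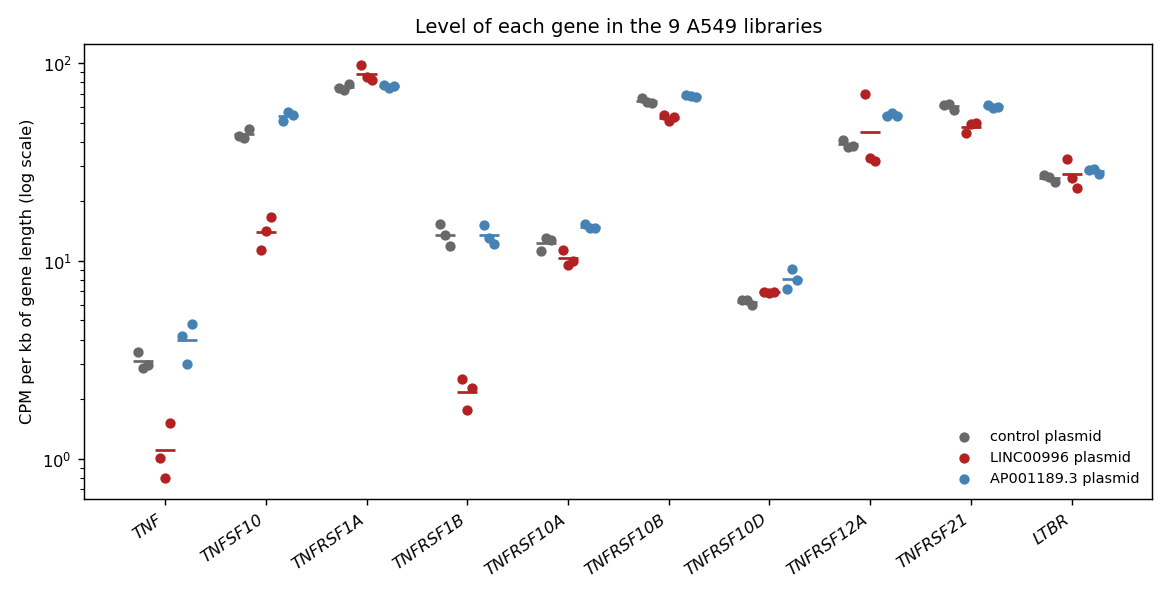
Level of each of the 10 genes in the 9 libraries, as CPM per kb of gene length on a log axis. Each point is a library, the short bar is the mean of the 3 libraries of a group, and colours mark the control, LINC00996 and AP001189.3 plasmids. The LINC00996 libraries lie below both other groups for TNF, TNFSF10 and TNFRSF1B, and 1 LINC00996 library stands far above the other points of its group for TNFRSF12A.

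With the LINC00996 plasmid, 5 of the 10 genes fell and none rose. The genes that fell were TNF, TNFSF10, TNFRSF1B, TNFRSF10B and TNFRSF21, at an adjusted p below 0.05 in edgeR's quasi-likelihood test. TNF fell by 64.0%, TNFSF10 fell by 67.8% and TNFRSF1B fell by 83.8%, and the other receptors moved by no more than 0.35 on the log2 scale. Of all 16097 genes tested in this comparison, 22.3% were called, 11.6% lower and 10.7% higher. These were 1866 lower and 1722 higher, and with library size alone as the scaling 1669 lower and 2006 higher. The median log2 fold change was -0.27 over the 10 genes and 0.01 over all genes tested. The 3 and 3 libraries did not overlap for 7 of the 10 genes, against 40.4% of all genes tested. With the AP001189.3 plasmid, 4 of the 10 genes rose and none fell. These were TNFSF10, TNFRSF10A, TNFRSF10D and TNFRSF12A, against 19.8% of 16023 genes called, 11.4% higher and 8.49% lower. With library size alone as the scaling, 1608 genes were higher and 1719 lower, against 1819 and 1361. The median over the 10 genes was 0.19, beside -0.0013 over all genes tested, and 6 of the 10 did not overlap, against 35.2% of all genes. Both comparisons share the control libraries. The labels do not say that the 3 libraries of a group came from separate cultures, so the p-values measure only the spread between these samples.

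**Figure D2:**
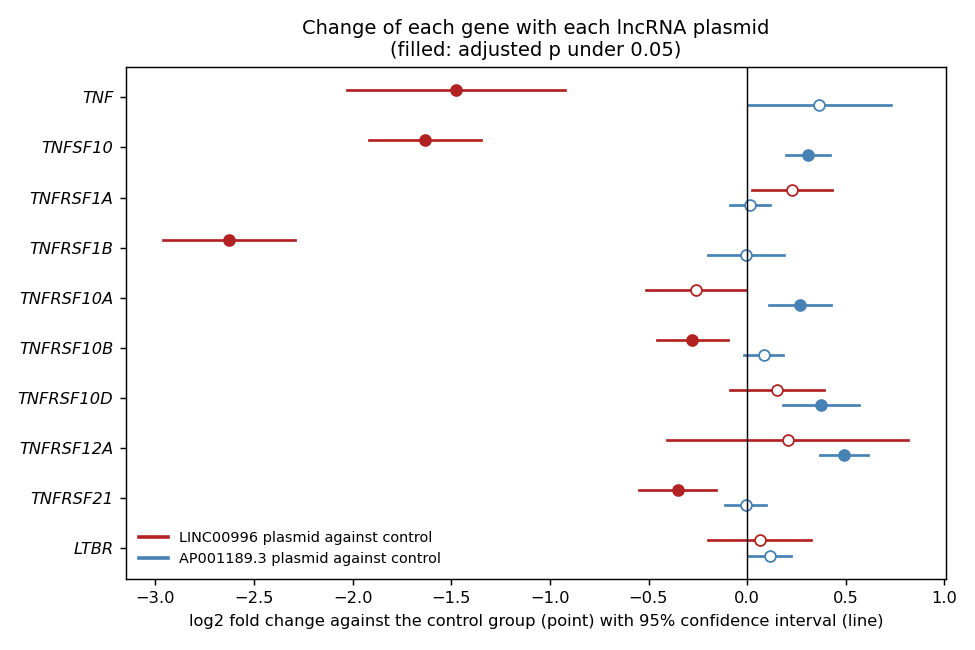
Log2 fold change of each gene against control (points) with its 95% confidence interval (lines), for LINC00996 and AP001189.3. Filled points passed an adjusted p of 0.05, which held for 5 genes with LINC00996, all below 0, and 4 with AP001189.3, all above 0.

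TNF, the founding ligand of the family and an inducer of NF-kB target genes, was the least abundant of the 10. The gene lies at chr6:31575567-31578336 on the plus strand of GRCh38, the build of all coordinates given here. Control libraries yielded 99, 77 and 87 counts, LINC00996 libraries 31, 21 and 47, and AP001189.3 libraries 118, 78 and 133. As CPM these were 5.82, 4.79 and 5.003 in control, 1.70, 1.33 and 2.54 with LINC00996, and 6.97, 5.07 and 8.06 with AP001189.3. All LINC00996 libraries lay below all others, while the AP001189.3 libraries overlapped control. With LINC00996, TNF fell by 1.47 on the log2 scale (SE 0.25, adjusted p = 0.00160). With AP001189.3 the log2 fold change was 0.37 (SE 0.18, adjusted p = 0.151), with a 95% confidence interval from 0.0039 to 0.73, and it was 0.21 without AP001189.3 replicate 3 (adjusted p = 0.542). In bulk samples such as these, fewer cells that express a gene and less RNA per cell cannot be told apart.

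TNFSF10, located at chr3:172505508-172523507 on the minus strand, encodes TRAIL, which triggers apoptosis through DR4 and DR5. Its level was 148, 146 and 160 CPM in control, 39.4, 49.0 and 58.0 CPM with LINC00996, and 177, 196 and 189 CPM with AP001189.3. The 3 groups were fully separated, with LINC00996 lowest and AP001189.3 highest. TNFSF10 fell by 67.8% with LINC00996 (log2 fold change -1.63, SE 0.13, adjusted p = 7.63e-06). It rose 1.24-fold with AP001189.3 (log2 fold change 0.31, SE 0.06, adjusted p = 2.15e-04). The ratio of TNFSF10 to TNF per kb was 14.1 ± 1.64 in control, 13.3 ± 3.84 with LINC00996 and 14.1 ± 4.003 with AP001189.3 (SD, n = 3 each). The ratios of the 3 groups therefore differed by less than their spread.

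TNFRSF1A encodes TNFR1, the death-domain receptor through which soluble TNF mainly signals, and lies at chr12:6328757-6342114 on the minus strand. It was measured at 299, 291 and 315 CPM in control, 393, 340 and 328 CPM with LINC00996, and 310, 300 and 305 CPM with AP001189.3. Although the LINC00996 libraries all lay above control, the difference did not pass the test (log2 fold change 0.23, SE 0.09, adjusted p = 0.106). Its 95% confidence interval ran from 0.02 to 0.43, and without LINC00996 replicate 1 the value was 0.15 (adjusted p = 0.0578). The call depended on the fit, since it passed with all 9 libraries in 1 fit (adjusted p = 0.0425) and with a GC-content offset (log2 fold change 0.18, adjusted p = 0.0221). With AP001189.3 the log2 fold change was 0.02, with an interval from -0.09 to 0.12. Over the 16 alternative fits it ran from -0.10 to 0.05 and was not called.

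TNFRSF1B moved by more than any other gene of the list. It lies at chr1:12167003-12209228 on the plus strand and encodes TNFR2, which responds best to membrane-bound TNF. Control libraries held 57.6, 50.7 and 44.6 CPM and AP001189.3 libraries 57.1, 49.0 and 45.9 CPM, whereas LINC00996 libraries held 9.47, 6.66 and 8.55 CPM. The highest LINC00996 library was thus well below the lowest library of either other group. TNFRSF1B fell by 83.8% with LINC00996 (log2 fold change -2.63, SE 0.15, adjusted p = 9.52e-07) and ranked 14 by p among the 16097 genes tested. No difference was detected with AP001189.3 (log2 fold change -0.01, 95% confidence interval from -0.20 to 0.19, adjusted p = 0.968). Over the 16 alternative fits this value ran from -0.15 to 0.09 and was not called.

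Since the receptors of TNF moved apart with LINC00996, their ratio was taken within each library, per kb. TNFRSF1A exceeded TNFRSF1B 4.89, 5.40 and 6.64 times in control, 39.0, 48.0 and 36.0 times with LINC00996, and 5.11, 5.76 and 6.25 times with AP001189.3. The means were 5.64 ± 0.902, 41.0 ± 6.26 and 5.70 ± 0.570 (SD, n = 3 each). LINC00996 libraries were all above both other groups, and the control and AP001189.3 ranges overlapped. Per kb of the longest transcript the means were 9.94 ± 1.59, 72.3 ± 11.0 and 10.05 ± 1.004. Most of this shift lay in the lower term, since TNFRSF1B changed by -2.63 and TNFRSF1A by 0.23 on the log2 scale.

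**Figure D3:**
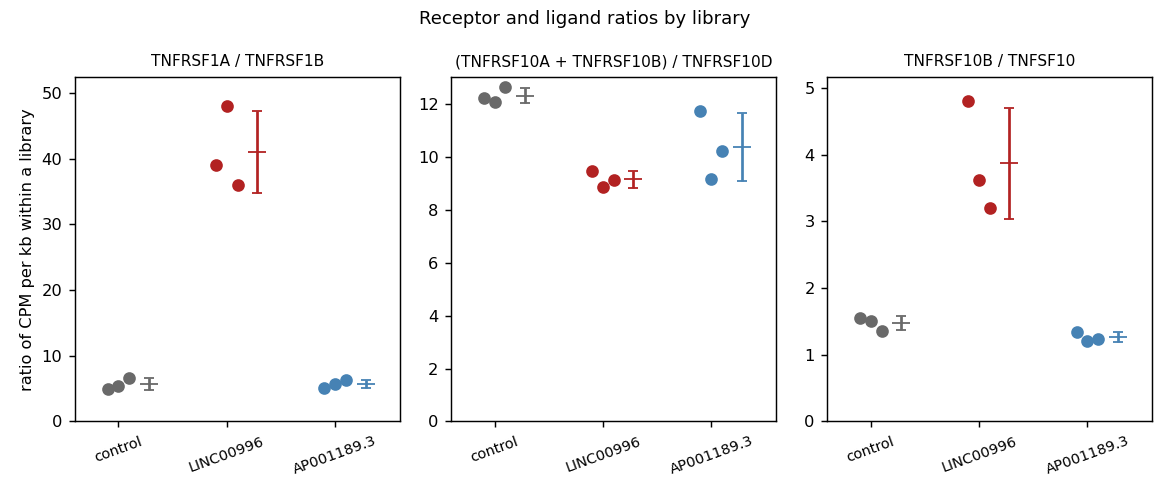
Ratios of CPM per kb within a library, for TNFRSF1A to TNFRSF1B, for the sum of TNFRSF10A and TNFRSF10B to TNFRSF10D, and for TNFRSF10B to TNFSF10. Points are libraries, and the bars to their right give the mean and SD of the 3 libraries of a group. The first ratio is 41.0 on average with LINC00996 and under 7 in every other library.

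The sequences before the start sites of TNF, TNFSF10 and TNFRSF1B are shown because these genes carried the decreases with LINC00996. RefSeq promoter windows (GRCh38.p14, 250 bases before to 50 after the start) were found for 6 of the 10 genes, namely these 3, TNFRSF1A, TNFRSF21 and LTBR. The windows were searched on both strands for the core of the interferon-stimulated response element (ISRE; TTTC, any pair of bases, TTTC), the TATA box TATAAA, the GAS element TTCNNNGAA and the kB consensus. The 250 bases before each start are printed 5′ to 3′ on the strand of the gene, with ISRE cores and TATA boxes in capitals.
TNF (chr6:31575315-31575564, plus strand): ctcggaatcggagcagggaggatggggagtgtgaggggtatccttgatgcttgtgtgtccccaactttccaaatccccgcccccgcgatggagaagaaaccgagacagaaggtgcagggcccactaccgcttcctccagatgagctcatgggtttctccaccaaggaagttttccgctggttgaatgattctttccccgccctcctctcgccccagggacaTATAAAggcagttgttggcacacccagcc
TNFSF10 (chr3:172523431-172523680, minus strand): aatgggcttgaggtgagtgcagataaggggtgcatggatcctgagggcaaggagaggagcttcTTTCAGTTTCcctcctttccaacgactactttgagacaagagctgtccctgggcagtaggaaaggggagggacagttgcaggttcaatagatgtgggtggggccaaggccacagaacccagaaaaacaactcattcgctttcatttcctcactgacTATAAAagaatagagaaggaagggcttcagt
TNFRSF1B (chr1:12166741-12166990, plus strand): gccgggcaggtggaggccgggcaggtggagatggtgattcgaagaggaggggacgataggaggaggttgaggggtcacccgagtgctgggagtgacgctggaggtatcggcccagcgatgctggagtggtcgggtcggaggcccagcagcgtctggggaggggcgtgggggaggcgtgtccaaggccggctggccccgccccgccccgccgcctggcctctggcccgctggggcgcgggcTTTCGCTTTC
TNFSF10 and TNFRSF1B each held an ISRE core, with its first base at -187 and -10 from the start, and 3.57% of all 35116 windows hold this motif. TATA boxes were found at -29 in TNF and at -31 in TNFSF10, beside 11.5% of all windows. None of the 4 motifs occurred in the windows of TNFRSF1A, TNFRSF21 and LTBR. GAS elements and the kB consensus, present in 7.66% and 11.3% of all windows, were not matched in any of the 6. The kB consensus was read as GGG, a purine, any pair of bases, a pair of pyrimidines and CC. Sites with other letters were not sought, so an absent match does not mean that no site is present. The motifs do not overlap each other in these windows, and a match describes letters only.

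The TRAIL receptor genes TNFRSF10A, TNFRSF10B and TNFRSF10D lie within 204994 bases on chromosome 8, all on the minus strand. TNFRSF10A, at chr8:23190452-23225126, encodes DR4. Its level was 33.05, 38.6 and 37.4 CPM in control, 33.5, 28.03 and 29.5 CPM with LINC00996, and 45.1, 43.2 and 43.1 CPM with AP001189.3. The LINC00996 libraries overlapped control through replicate 1 of both groups, while every AP001189.3 library exceeded every control. TNFRSF10A rose by 20.5% with AP001189.3 (log2 fold change 0.27, SE 0.08, adjusted p = 0.0131), but the adjusted p was 0.0511 without AP001189.3 replicate 1 and 0.0643 without control replicate 1. With LINC00996 the log2 fold change was -0.26 (SE 0.12, adjusted p = 0.131). Without LINC00996 replicate 1 it was -0.34 (adjusted p = 0.00713), and with all libraries and the GC-content offset -0.28 (adjusted p = 0.0195), so that the gene was called in these fits.

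TNFRSF10B, at chr8:23020133-23069179, encodes DR5 and was the most abundant TRAIL receptor. It was measured at 342, 327 and 324 CPM in control, 281, 264 and 275 CPM with LINC00996, and 354, 353 and 346 CPM with AP001189.3. Every LINC00996 library was below every control library, and every AP001189.3 library was above. The decrease with LINC00996 was small and close to the threshold (log2 fold change -0.28, SE 0.08, adjusted p = 0.0308). It lost the call without LINC00996 replicate 2 or 3 or any 1 of the control libraries, with an adjusted p between 0.0525 and 0.145. It was also lost with library size alone as the scaling (adjusted p = 0.0522) and with no filter on low counts (adjusted p = 0.0778). With AP001189.3 the log2 fold change was 0.08 (SE 0.05, adjusted p = 0.240), with a 95% confidence interval from -0.02 to 0.18.

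TNFRSF10D, at chr8:23135588-23164030, encodes the decoy DcR2, which binds TRAIL without passing on a full death signal. Control libraries held 22.5, 22.4 and 21.2 CPM, LINC00996 libraries 24.6, 24.2 and 24.6 CPM, and AP001189.3 libraries 25.3, 32.1 and 28.3 CPM. Both lncRNA groups were above control in all libraries, but only with AP001189.3 did the difference pass the test. TNFRSF10D rose by 29.6% there (log2 fold change 0.37, SE 0.09, adjusted p = 0.00573). Without AP001189.3 replicate 2, its highest library, the log2 fold change was 0.28 (adjusted p = 0.0754). The LINC00996 value was 0.15 (SE 0.11, adjusted p = 0.350), with an interval from -0.09 to 0.39.

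Among the genes chosen, the balance of death receptors and decoy was described by the ratio of TNFRSF10A plus TNFRSF10B to TNFRSF10D, per kb. TNFRSF10C, from the list of other receptors, was not part of it. That gene was at 2.10 CPM in control, 2.35 CPM with LINC00996 and 2.32 CPM with AP001189.3. The ratio was 12.2, 12.1 and 12.6 in control, 9.48, 8.86 and 9.10 with LINC00996, and 11.7, 9.17 and 10.2 with AP001189.3. Control libraries were above all libraries of both lncRNA groups, whose ranges met. The means were 12.3 ± 0.287, 9.15 ± 0.310 and 10.4 ± 1.28 (SD, n = 3 each). The ratio of TNFRSF10B to TNFSF10, a receptor and its ligand, was 1.48 ± 0.100 in control, 3.87 ± 0.832 with LINC00996 and 1.26 ± 0.0741 with AP001189.3. Per kb of the longest transcript it was 1.03 ± 0.0702, 2.71 ± 0.582 and 0.883 ± 0.0519, so these ratios compare groups and are not numbers of transcripts. TNFRSF10B to TNFRSF10A varied less, at 5.24 ± 0.598, 5.17 ± 0.324 and 4.58 ± 0.0870. Because these receptors are paralogs of similar sequence, the counting could split their reads, and their values are uncertain to that extent. Whether counting used the strand is not given in the sources used here. Genes that overlap TNFRSF10A held 518 (AC100861.1), 436 (TNFRSF10A-AS1) and 13 (RPL23AP55) counts over all libraries beside its own 5574, and RHOBTB2 held 3813 beside the 48227 of TNFRSF10B.

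TNFRSF12A, at chr16:3018445-3022383 on the plus strand, encodes Fn14, the receptor of the ligand TWEAK, which has no death domain and is induced by growth factors. It held 75.8, 69.2 and 70.7 CPM in control, 129, 61.4 and 58.7 CPM with LINC00996, and 100.2, 103 and 99.9 CPM with AP001189.3. The AP001189.3 libraries lay close together above all control libraries, whereas LINC00996 replicate 1 lay above and replicates 2 and 3 lay below control. With AP001189.3, TNFRSF12A rose 1.40-fold (log2 fold change 0.49, SE 0.06, adjusted p = 1.14e-06). The GC content of its longest transcript was 64.2%, at percentile 95.2 of the genes, and a GC-content offset brought the log2 fold change to 0.27 (adjusted p = 6.91e-04). With LINC00996 the log2 fold change was 0.21 (SE 0.27, adjusted p = 0.634). It turned to -0.26 without LINC00996 replicate 1 (adjusted p = 0.00806), so its direction rests on that library, and it was 0.38 without replicate 2 and 0.40 without replicate 3.

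TNFRSF21, at chr6:47231532-47309905 on the minus strand, encodes the death-domain receptor DR6. Levels were 221, 224 and 208 CPM in control, 158, 176 and 178 CPM with LINC00996, and 219.7, 214 and 216 CPM with AP001189.3. Every LINC00996 library was below the other groups, which overlapped. TNFRSF21 fell by 21.7% with LINC00996 (log2 fold change -0.35, SE 0.09, adjusted p = 0.0142), and the adjusted p was 0.0743 without control replicate 1 and 0.0948 without control replicate 2. With AP001189.3 its log2 fold change was -0.01, with an interval from -0.11 to 0.10 (adjusted p = 0.941).

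LTBR, at chr12:6375045-6391571 on the plus strand, lies 32930 bases from TNFRSF1A and encodes the lymphotoxin beta receptor, which activates non-canonical NF-kB signalling. It was found at 170.3, 167 and 157 CPM in control, 206, 164 and 146 CPM with LINC00996, and 179.8, 183 and 173 CPM with AP001189.3. LINC00996 libraries spread to both sides of control, with replicate 1 the highest. The log2 fold change was 0.06 with LINC00996 (SE 0.12, adjusted p = 0.746, interval from -0.20 to 0.32) and 0.12 with AP001189.3 (SE 0.05, adjusted p = 0.122, interval from 0.0087 to 0.22). No difference was thus detected with either plasmid, although the AP001189.3 libraries did not overlap control. Over the 16 alternative fits the AP001189.3 value ran from 0.03 to 0.14 and was not called. Without LINC00996 replicate 1, the LINC00996 value was -0.09 (adjusted p = 0.348). SCNN1A, which overlaps LTBR, held 3167 counts over all libraries beside 26074 of LTBR.

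The count of 5 genes called with LINC00996 was 7 without LINC00996 replicate 1, all of them lower, since TNFRSF10A and TNFRSF12A were then called as well, and 33.2% of all genes were called in that fit. With the GC-content offset the count was also 7, with 6 lower and 1 higher, beside 37.4% of all genes. It was 3 without control replicate 1 or without control replicate 2, beside 12.6% and 11.6% of all genes, and the genes left were TNF, TNFSF10 and TNFRSF1B. Those 3 kept their call in all 16 alternatives computed, with log2 fold changes from -1.77 to -1.29 for TNF, from -1.78 to -1.50 for TNFSF10 and from -2.73 to -2.50 for TNFRSF1B. The 4 calls with AP001189.3 were lost when all 9 libraries shared 1 estimate of the spread, a fit that called 2.64% of all genes, with adjusted p-values of 0.131 for TNFSF10, 0.149 for TNFRSF10A, 0.0715 for TNFRSF10D and 0.350 for TNFRSF12A. When LINC00996 replicate 1 was left out of that fit, all 4 were called again, beside 19.5% of all genes.

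Whether the plasmids differed from each other was tested directly, LINC00996 against AP001189.3. Of the 10 genes, 6 were lower with LINC00996 and none was higher. These were TNFRSF1B (log2 fold change -2.62, SE 0.15, adjusted p = 7.90e-07), TNFSF10 (-1.95, SE 0.13, adjusted p = 2.50e-06) and TNF (-1.84, SE 0.26, adjusted p = 5.02e-04), followed by TNFRSF10A, TNFRSF10B and TNFRSF21. The last 3 differed by -0.53 (adjusted p = 0.00386), -0.37 (adjusted p = 0.00593) and -0.35 (adjusted p = 0.0131). The call of TNFRSF21 was lost without any 1 of the AP001189.3 libraries, at an adjusted p of 0.0676 to 0.0739. Of 16095 genes tested, 21.4% were called, with 1510 (9.38%) higher and 1942 (12.1%) lower in LINC00996. With library size alone as the scaling, these were 2129 higher and 1667 lower, the 6 genes were still lower and TNFRSF1A was called higher (0.27, adjusted p = 0.0419). TNFRSF1A was also called higher with the GC-content offset (0.27, adjusted p = 5.03e-04). The libraries did not overlap for 8 of the 10 genes, against 39.2% of all genes. TNFRSF12A, at -0.29 (SE 0.25, adjusted p = 0.449), was -0.75 without LINC00996 replicate 1 (adjusted p = 2.72e-11), -0.11 without replicate 2 and -0.09 without replicate 3. LTBR moved from -0.06 (adjusted p = 0.762) to -0.20 (adjusted p = 0.00428) without it, and TNFRSF1A from 0.21 (adjusted p = 0.117) to 0.13 (adjusted p = 0.0350). Without that library 9 of the 10 genes were called, beside 41.6% of all genes. TNFRSF10D differed by -0.23 (adjusted p = 0.192), with an interval from -0.48 to 0.03, and by -0.26 with the GC-content offset, where it passed (adjusted p = 0.0374). Without AP001189.3 replicate 2 it differed by -0.13 (adjusted p = 0.578). The GC-content offset called 8 of the 10 genes, TNFRSF1A higher and 7 lower, beside 35.9% of all genes.

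The rest of the family was then described from lists of ligands, receptors, receptor-proximal signalling proteins and TNF target genes. These lists were chosen with earlier results of these data known. Of 16 other ligands, 8 were expressed highly enough to be tested against control. LINC00996 lowered 2 of them and raised none, with a median log2 fold change of -0.26. A share of 2 in 8, or 25%, lies near the 22.3% of all genes called. Without LINC00996 replicate 1, 5 were called, 4 of them lower, beside 33.2% of all genes, and the median was -0.49. With the GC-content offset 4 were called, 3 lower and 1 higher, beside 37.4% of all genes. With all 9 libraries in 1 fit, where 9 ligands were tested, the median was -0.16, and without LINC00996 replicate 3 it was -0.08, also over 9 ligands. TNFSF13B (BAFF), a survival factor for B cells, was at 7.47 ± 1.79 CPM against 24.6 ± 5.28 CPM in control (log2 fold change -1.72, adjusted p = 1.24e-04), and TNFSF14 (LIGHT), a ligand of LTBR, was at 21.3 ± 0.916 against 39.7 ± 4.30 CPM (-0.89, adjusted p = 2.80e-04). TNFSF15 and TNFSF9 did not pass, at 0.26 (adjusted p = 0.0983) and -0.37 (adjusted p = 0.119). AP001189.3 raised 2 and lowered 1, or 37.5% beside 19.8% of all genes, with a median of 0.23. The median was 0.08 without AP001189.3 replicate 1, 0.07 without control replicate 2 and 0.09 with the GC-content offset. LTB, which forms the membrane-bound ligand of LTBR, rose from 8.10 ± 0.367 to 15.3 ± 2.15 CPM (0.92, adjusted p = 9.74e-06), TNFSF14 rose by 0.35 (adjusted p = 0.00198) and TNFSF15 fell by 0.46 on the log2 scale (adjusted p = 2.96e-04). LTBR itself thus passed the test with neither plasmid. Its ligand TNFSF14 was lower with LINC00996 and higher with AP001189.3. LTB was called against control only with AP001189.3, and its log2 fold change with LINC00996 was -0.10 (adjusted p = 0.798). LTA, the other lymphotoxin gene of the list, was too low to be tested, at 0.236 CPM in control, 0.157 CPM with LINC00996 and 0.436 CPM with AP001189.3.

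Among 21 other receptors, 13 were tested. LINC00996 lowered 6 and raised none, or 46.2% beside 22.3% of all genes, with a median log2 fold change of -0.58. With the GC-content offset 9 were called, 8 lower and 1 higher, beside 37.4% of all genes. Without LINC00996 replicate 1 there were 7, all lower, beside 33.2%. Without any 1 of the control libraries there were 5, all lower, beside 11.6% to 13.1%. CD40, a costimulatory receptor, fell from 32.96 ± 3.66 to 11.8 ± 1.06 CPM (log2 fold change -1.48, adjusted p = 1.68e-05), and TNFRSF9 (4-1BB) fell from 17.1 ± 1.12 to 6.62 ± 1.73 CPM (-1.37, adjusted p = 2.49e-04). TNFRSF14 (HVEM) fell by 2.49 on the log2 scale at a low level, 0.354 ± 0.153 against 2.05 ± 0.399 CPM (adjusted p = 9.25e-04), and TNFRSF11A (RANK) fell by 0.58 (adjusted p = 0.00238). With AP001189.3, 1 receptor rose and 1 fell, with a median of 0.06, and this share of 15.4% was below the 19.8% of all genes. The median took either sign, at -0.04 without AP001189.3 replicate 2, -0.02 without AP001189.3 replicate 3 and -0.08 with the GC-content offset. TNFRSF14 rose to 3.46 ± 0.229 CPM (0.75, adjusted p = 0.0267), and the death receptor FAS fell by 0.22 on the log2 scale (adjusted p = 0.0476). Both calls were lost with the GC-content offset, with DESeq2, with all 9 libraries in 1 fit, without any 1 of the AP001189.3 libraries and without control replicate 2.

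Of 33 receptor-proximal signalling genes, 32 were tested. LINC00996 lowered 12 and raised none, or 37.5% beside 22.3% of all genes, with a median of -0.21. CASP10, an initiator caspase of death receptors, fell from 45.8 ± 3.43 to 23.1 ± 3.85 CPM (log2 fold change -0.99, adjusted p = 3.41e-04), and MLKL, the executor of necroptosis, fell from 112 ± 5.13 to 62.5 ± 3.22 CPM (-0.84, adjusted p = 8.80e-05). CFLAR (cFLIP), which blocks initiator caspases, fell by 0.62 (adjusted p = 4.51e-04), and CYLD, a deubiquitinase that restrains NF-kB, fell by 0.65 on the log2 scale (adjusted p = 0.00330). The genes that fell thus included promoters and inhibitors of cell death. The count was 19 without LINC00996 replicate 1, with 18 lower and 1 higher, beside 33.2% of all genes, and 21 with the GC-content offset, beside 37.4%. It was 6 to 9 without 1 of the control libraries, beside 11.6% to 13.1%. AP001189.3 raised 8 and lowered 2, or 31.2% beside 19.8% of all genes, with a median of 0.05. With all 9 libraries in 1 fit 1 gene was called, beside 2.64% of all genes. Without AP001189.3 replicate 2 or 3 there were 6, all higher, beside 11.6% and 13.6% of all genes, and the median was 0.03 to 0.09 over the fits without 1 library. RBCK1 (HOIL-1), a subunit of the linear ubiquitin ligase, rose by 0.33 (433.8 ± 9.46 against 346 ± 16.9 CPM, adjusted p = 3.20e-05). The 2 that fell, named after their values were seen, were BID (-0.25, adjusted p = 0.0134) and TRAF6 (-0.38, adjusted p = 0.0138).

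All 28 TNF target genes, most of them NF-kB targets, were tested. LINC00996 lowered 25 and raised none, or 89.3% beside 22.3% of all genes, with a median log2 fold change of -0.93 beside 0.01. As the list was chosen with earlier results of these data known, this share is no independent test. CXCL10, a chemokine for T cells that is also induced by interferon, fell from 36.0 ± 1.02 to 4.01 ± 1.28 CPM (-3.16, adjusted p = 9.52e-07), and TNFAIP3 (A20), a feedback inhibitor of NF-kB, fell from 392.04 ± 25.6 to 153 ± 7.91 CPM (-1.36, adjusted p = 2.36e-06). CCL20 and ICAM1, a chemokine and an adhesion molecule that also fell, had log2 fold changes of -1.56 (adjusted p = 3.59e-06) and -1.53 (adjusted p = 1.32e-05). The 3 genes that did not pass, named after their values were seen, were BCL3 (0.15, adjusted p = 0.365), CSF2 (-0.94, adjusted p = 0.0738) and LIF (-0.26, adjusted p = 0.118). The count was 27, all lower, without LINC00996 replicate 1, beside 33.2% of all genes, and 23 without any 1 of the control libraries, beside 11.6% to 13.1%. AP001189.3 raised 12 and lowered 1, or 46.4% beside 19.8% of all genes, with a median of 0.17. RELB, a subunit of non-canonical NF-kB, rose from 85.9 ± 5.81 to 119 ± 3.99 CPM (0.47, adjusted p = 2.24e-06), and LIF, a cytokine of the interleukin 6 family, rose by 0.38 (151 ± 6.75 against 116 ± 5.20 CPM, adjusted p = 2.10e-05). PTGS2, named after its values were seen, fell by 0.19 (adjusted p = 0.00642). With all 9 libraries in 1 fit, 4 target genes were called with AP001189.3, beside 2.64% of all genes, and without control replicate 2 there were 8, beside 12%. In the direct comparison, 27 of 28 target genes were lower with LINC00996 than with AP001189.3 and none was higher, beside 21.4% of all genes called and 12.1% lower.

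**Figure D4:**
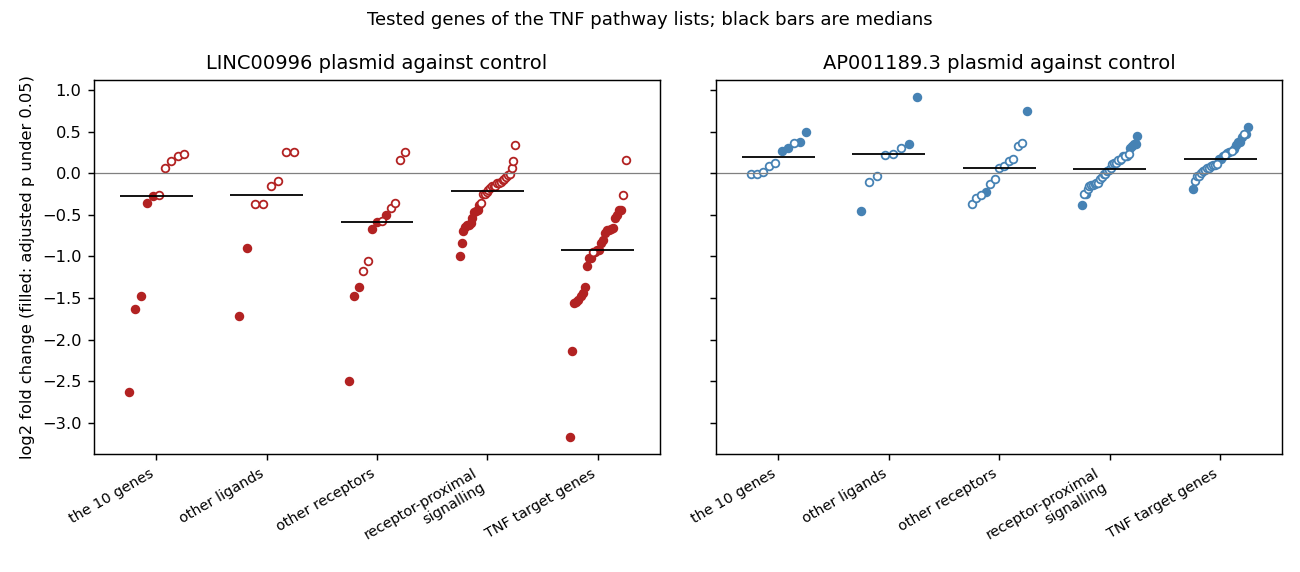
Log2 fold change against control of every tested gene in the 10 genes and the 4 pathway lists, for LINC00996 (left) and AP001189.3 (right). Points are genes, filled where the adjusted p was under 0.05, and black bars are medians. Of the 28 TNF target genes, 25 lie below 0 as filled points with LINC00996, and 12 lie above 0 as filled points with AP001189.3.

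The genes whose profile over the 9 libraries was most like that of each ligand were sought among 12771 protein-coding genes. Likeness was the root mean square difference of log2 CPM after each gene was centred on its own mean. TNFSF10, which spanned 2.31 on the log2 CPM scale, was nearest to GBP1, an interferon-induced GTPase, at 0.0806. LIFR, the receptor of LIF, followed at 0.0977, and RASGRP3, an activator of Ras, at 0.106. GBP1 had a mean of 161 CPM in control, 54.7 CPM with LINC00996 and 218 CPM with AP001189.3. TNF, which spanned 2.50, was nearest to PTGER4, a prostaglandin receptor, at 0.191, then to SPTBN5, a spectrin, at 0.192 and to PLXNC1, a semaphorin receptor, at 0.209. The larger distances for TNF came with its lower counts, 21 to 133 per library.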

How the data were processed

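Total RNA of A549 was extracted with Trizol, and libraries of 150 bp paired-end reads were sequenced by the authors' provider. Per the submitters' processing notes, HISAT2 2.0.5 and featureCounts 1.5.0-p3 were used with GRCh38. The authors deposited counts per gene without normalization, which were used here, beside FPKM values, which were not used. Libraries were grouped by title.

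In 3 comparisons, the 6 libraries were tested with edgeR 4.0.16 (R 4.3.3) using filterByExpr, TMM and the robust quasi-likelihood test. P-values were adjusted by Benjamini-Hochberg over all genes tested and called under 0.05. CPM used TMM over all libraries, log2 CPM a prior count of 2, and levels per kb the gene length that the authors deposited. The procedure was tested on simulated data. The genes, lists and tests were chosen with earlier results of these data known. Named were the 10 genes, the 4 and 2 genes of each list with the smallest adjusted p with LINC00996 and AP001189.3, and the 3 nearest profiles of each ligand. A gene that this rule names is not reported here.

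Alternatives were DESeq2 1.42.0, other scalings, filters and thresholds, a replicate block, all libraries in 1 fit, leaving out libraries or mitochondrially encoded genes, and, chosen after seeing the data, GC-content offsets (loess, span 0.75) and a fit of 8 libraries. DIABLO and SOD2 each had 2 records, of which the one with more counts was used.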

Additional observations from a re-analysis of the deposited data

How the results depend on the processing

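Among the 10 genes, depth limited TNF most, at 21 to 133 counts per library, and 3 libraries per group limited every test. Requiring also a log2 fold change of 1 or more in either direction left 759 genes with LINC00996, 158 with AP001189.3 and 666 in the direct comparison, and 3, 0 and 3 of the 10 genes. The GC-content offset, chosen after seeing the data, gave 6011 genes with LINC00996 and 5779 in the direct comparison, and 5975 and 5766 with the replicate block added. All 9 libraries in 1 fit gave 437 genes and 0 of the 10 with AP001189.3. Without LINC00996 replicate 1, the fit of the other 8 libraries, chosen after seeing the data, gave 5792 genes and 8 of the 10 with LINC00996, and 6405 genes in the direct comparison. TNFRSF12A then reversed with LINC00996 to -0.26, as it did at -0.26 in the comparison's own fit, and ranged from -0.26 to 0.40 over the fits without 1 library. Leaving out 1 library at a time gave 1925 to 5481 genes and 3 to 7 of the 10 with LINC00996, 1914 to 3598 genes and 3 to 4 of the 10 with AP001189.3, and 1840 to 6828 genes and 5 to 9 of the 10 in the direct comparison. The gene counts moved by over 1.5 times without LINC00996 replicate 1 or any 1 control library with LINC00996, without AP001189.3 replicate 2 or control replicate 2 with AP001189.3, and without LINC00996 replicate 1 or 2 or any 1 AP001189.3 library in the direct comparison. The cause of these changes was not tested.

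Same-numbered libraries deviated together at a correlation of -0.020 to 0.15, and not every library correlated best with its own number, so the numbers were not taken to pair samples. A replicate block gave 4500, 3466 and 3772 genes and 5, 4 and 6 of the 10, the same numbers of the 10 as without it. Over the single-gene values and their alternatives, direction and side of the threshold were kept in 536 of 591 with LINC00996, 521 of 592 with AP001189.3 and 558 of 591 in the direct comparison.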
